A study of Mus musculus with 12 samples.

Results

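Kidneys of AT1A receptor knockout mice infused with angiotensin II were set against kidneys of wild-type mice that received no infusion. The members of the comparison were the 3 arrays of infused knockout (KO) kidney and the 3 arrays of untreated wild-type (WT) kidney, 6 of the 12 arrays in the series, chosen by the group their titles name. Genotype and treatment both differ between these groups, so what the missing receptor contributes and what the infusion contributes cannot be told apart within the comparison alone. All mice were males of 2.5 months from an F1 cross of C57BL6 and 129/SvEv, and each group held 3 of them, with 1 array of whole-kidney RNA for each animal. The infused KO mice carried the AGTR1A-KO genotype and were given ANG II at 1 ug/kg/min for 2 days on an NS diet, the untreated WT mice were kept on the NS diet at baseline, and the term NS is not spelled out in the labels. Untreated KO and infused WT kidneys, also 3 arrays each, completed the design and are given beside the values where they differ. The labels do not describe how the allele was made, whether the mice were littermates or which other tissues lacked the receptor function.

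The renin-angiotensin system acts through the peptide angiotensin II, which in rodents binds a pair of closely related type 1 receptors, AT1A and AT1B, and a type 2 receptor. AT1A, encoded by Agtr1a, is the main type 1 receptor of the mouse kidney, where it is known for constricting vessels, promoting sodium reabsorption in the tubule and restraining renin release. A kidney without this receptor can still be reached by the infused peptide through the other receptors and through changes elsewhere in the body.

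Each value below is a ratio of 1 array to the median of that probe set over the 12 arrays, so a ratio of 1 marks the middle of the series. Ratios compare arrays within a probe set and hold no level, so no gene can be ranked against another and the presence of kidney markers as such cannot be read. Differences are log2 differences, infused KO minus untreated WT, with a moderated standard error (SE) from limma, n = 3 arrays in each group, and calls were made at adjusted p under 0.05 (Benjamini-Hochberg). The SE and p-values take the spread between mice from all 12 arrays, including the groups not compared here. Having 3 arrays in a group limits every value. Over all arrays the SD of the log2 ratios was 0.165 to 0.196 in infused KO and 0.164 to 0.18 in untreated WT, against 0.222 to 0.262 in untreated KO and 0.268 to 0.342 in infused WT.

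The targeted gene came first. Agtr1a gave ratios of 1.369, 1.397 and 1.356 in untreated WT and 0.983, 0.917 and 1.05 in infused KO. Every infused KO value lay below every untreated WT value, and the log2 difference was -0.48 ± 0.08 (adjusted p = 0.00726). The single probe set of Agtr1a was as low in infused WT kidneys, at 0.957, 1.003 and 0.997, as in those without the receptor. No source used here says where this probe set lies relative to the deleted sequence. Its low values therefore check the labels of the untreated groups in part, and not those of the infused groups. The other renin-angiotensin genes measured were close between the groups. Agtr1b, the second type 1 receptor, differed by -0.06 (95% interval -0.30 to 0.19), Agtr2, the type 2 receptor, by 0.01 (-0.22 to 0.24), and Agt, the precursor angiotensinogen, by 0.06 (-0.23 to 0.36). Ace, the converting enzyme, read 1.247, 1.343 and 1.075 in infused KO against 1.066, 0.998 and 1.001 in untreated WT, a difference of 0.25 that was not called (adjusted p = 0.211). Of the 12 renin-angiotensin genes measured, 1 was called, which was Agtr1a, and 11 had a 95% interval within 1.5-fold in either direction.

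Infused KO kidneys resembled untreated WT kidneys over most of the array, and the genes that set them apart were few. Of 45037 probe sets, 833 were called, a share of 1.85%, with 404 higher (0.897%) and 429 lower (0.953%) in infused KO. Of these, 355 also differed at least 1.5-fold (0.788% of all), 180 higher (0.4%) and 175 lower (0.389%). A failed test does not show likeness, so the intervals were counted as well, and 41454 probe sets, 92% of those tested, had a 95% interval wholly inside a 1.5-fold difference. That bound is wide for these data. The 95th percentile of the absolute log2 difference was 0.365 here. It was 0.575, still inside 1.5-fold, in infused WT against untreated WT, the comparison with the most calls. Dim probe sets, which ratios cannot mark, are counted too, so the share alone does not set this pair apart. By the same rule for calls and with 1 probe set for each of 18193 genes, 269 genes were called, 1.48%, of which 152 were higher (0.835%) and 117 lower (0.643%). An interval inside 1.5-fold was found for 93% of genes, an unadjusted p under 0.05 for 12.3%, and infused KO and untreated WT ranges that did not overlap for 19.4%, which are the shares to read the counts below against. The count depends on single arrays: it fell to 300 without untreated WT replicate 2, 392 without infused KO replicate 3, 414 without infused KO replicate 1, 435 without untreated WT replicate 1, 504 without untreated WT replicate 3 and 533 without infused KO replicate 2.

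Counted in the same way, untreated KO against untreated WT gave 2936 called probe sets (6.52%), infused WT against untreated WT 10876 (24.1%), infused KO against untreated KO 4465 (9.91%) and infused KO against infused WT 8934 (19.8%). The comparisons share arrays, so their counts are set side by side without a test. The pair of groups described here had the fewest calls of the 5 in the fit to all arrays and in each of 20 alternatives in which all 5 could be fitted. Quantile normalization, which gives all arrays the same distribution of ratios, brought the count closest to the others, with 2742 calls against 3068 for untreated KO and untreated WT, 4063 for infused KO and infused WT, 4546 for infused and untreated KO, and 5704 for infused and untreated WT.

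Single arrays gave a similar picture, with an exception. The median absolute log2 difference between an infused KO and an untreated WT array was 0.1295 to 0.152 over the 9 pairs, with a median of 0.1422. Pairs within infused KO differed by 0.1193 to 0.132 and pairs within untreated WT by 0.1133 to 0.1279, so the closest pairs of the comparison overlapped the spread within a group. The medians were 0.1455 between untreated KO and untreated WT, 0.172 between infused and untreated KO, 0.1982 between infused and untreated WT and 0.204 between infused KO and infused WT. Under quantile normalization the order changed: the infused KO and untreated WT median was 0.1835, and those of untreated KO and untreated WT, at 0.177, and of infused and untreated WT, at 0.1768, were lower. Infused KO and untreated WT were thus the nearest pair of groups on the deposited scale and not after quantile normalization.

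**Figure D1:**
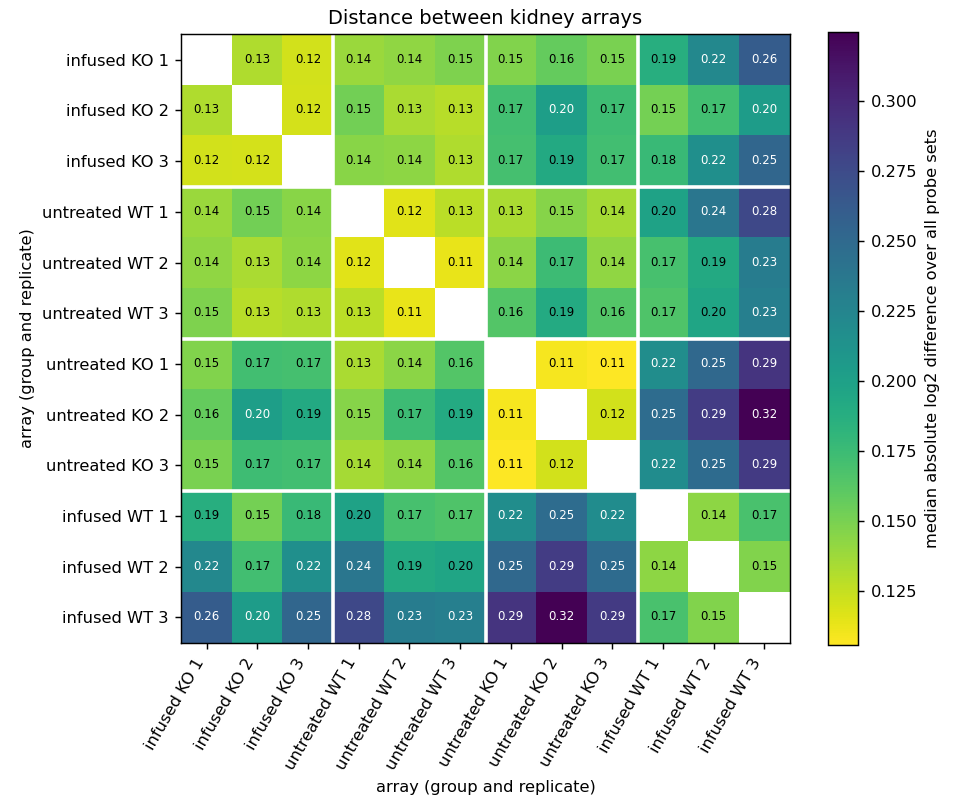
Heat map of the median absolute log2 difference over 45037 probe sets for every pair of the 12 arrays, rows and columns being arrays ordered by group; yellow is close and dark is far, and each cell prints its value. The infused KO and untreated WT block runs from 0.1295 to 0.152, near the 0.1133 to 0.132 seen inside those groups, while pairs of infused WT with other groups have medians of 0.1982 or more.

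Genes with the strongest WT response to the infusion stayed much closer to untreated WT in infused KO. By rule these were the 6 largest rises and the 6 largest falls among genes called in infused WT against untreated WT, so their distance from infused WT was fixed by the choice and is not tested. Cyp4a14, a fatty acid hydroxylase of the proximal tubule, read 21.37, 32.15 and 24.97 in infused WT. Its ratios were 1.19, 0.788 and 1.92 in infused KO and 0.762, 0.409 and 0.618 in untreated WT. All 3 infused KO values exceeded those of untreated WT, and the log2 difference of 1.07 ± 0.35 was not called (adjusted p = 0.151, 95% interval 0.33 to 1.82).

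Serpina6, which encodes corticosteroid-binding globulin, read 1.27, 0.957 and 0.968 in infused KO and 1.03, 0.953 and 1.23 in untreated WT, a difference of -0.01 (-0.74 to 0.71). In infused WT it read 12.4, 3.75 and 13.3. The infused KO and untreated WT ranges overlapped and all infused WT values lay above both. Hmox1, the heme-degrading enzyme heme oxygenase 1, read 0.856, 0.822 and 0.944 in infused KO, 0.844, 0.723 and 0.744 in untreated WT and 5.26, 3.17 and 6.65 in infused WT. The difference from untreated WT was 0.18 (-0.24 to 0.61).

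Among the falls, Acsm3, a medium-chain acyl-CoA synthetase, stood at 1.373, 1.296 and 1.16 in infused KO and 1.02, 0.95 and 0.982 in untreated WT, with infused WT at 0.185, 0.284 and 0.121. Infused KO thus lay somewhat above untreated WT and did not share the fall (difference 0.37, adjusted p = 0.467). Car3, a carbonic anhydrase, read 1.4, 1.35 and 1.25 in infused KO, below the 1.801, 2.041 and 1.631 of untreated WT, by -0.45 (adjusted p = 0.249). Quantile normalization made this -0.94 and called it (adjusted p = 0.0219). It read 0.121, 0.212 and 0.163 in infused WT and 0.75, 0.531 and 0.586 in untreated KO. The 4 probe sets of Car3 differed by -0.45 to 0.37 between infused KO and untreated WT, none called in the fit to all arrays. The remaining 7 genes were Depp1, Kynu, Pdk4, Ces1g, Slc7a13, Mfsd2a and 3110040M04Rik, with differences from -0.55 for Ces1g, a carboxylesterase, to 0.73 for 3110040M04Rik. Of the 12 genes, limma with Benjamini-Hochberg adjustment called 0 between infused KO and untreated WT, 3 had an unadjusted p under 0.05, and 9 had overlapping ranges. Car3 was called under quantile normalization and Cyp4a14 with the replicate block in these groups alone (adjusted p = 0.0408). In the fit to all arrays none of the 12 had its interval inside 1.5-fold, so these intervals bound likeness to untreated WT only loosely. That fit takes the spread from all 4 groups, including infused WT, by whose response the genes were chosen. Serpina6, with an SE of 0.34, read 3.75 to 13.3 in infused WT. The intervals are therefore not a measure of the infused KO and untreated WT arrays alone.

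**Figure D2:**
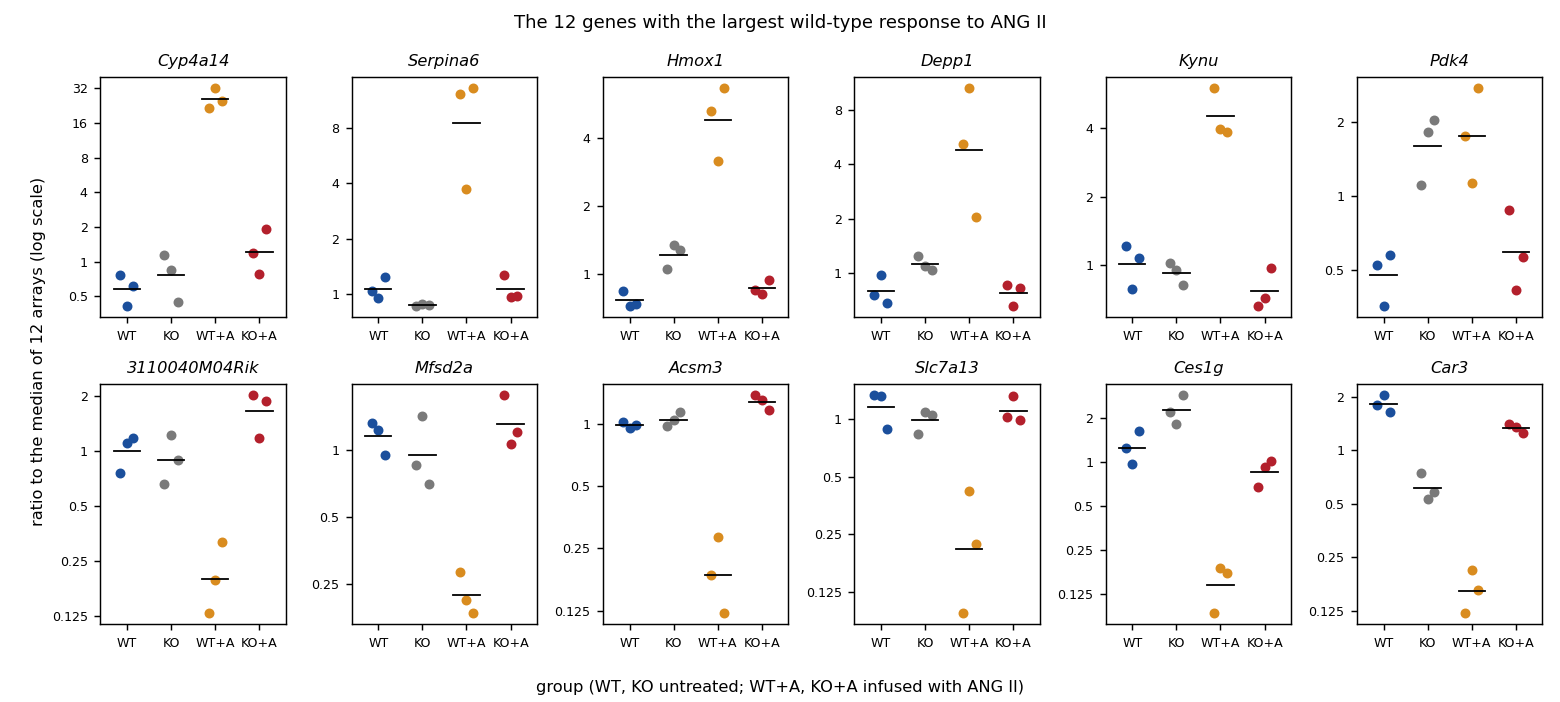
Ratios to the 12-array median on a log axis for the 12 genes with the largest called response in infused WT against untreated WT; points are single arrays, lines are group means of log2 ratios, and WT+A and KO+A are the infused groups. Infused KO and untreated WT overlap in 9 of the 12 panels, as for Serpina6 at 0.957 to 1.27 against 0.953 to 1.23, and stand apart for Cyp4a14, Acsm3 and Car3.

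A separate set of genes, chosen as the 6 largest rises and 6 largest falls in untreated KO against untreated WT, behaved less uniformly. Lyz2, a lysozyme of macrophages, read 1.58, 0.913 and 0.834 in infused KO and 0.932, 1.07 and 0.707 in untreated WT, a difference of 0.26 that was not called (adjusted p = 0.804). In untreated KO it read 6.33, 5.20 and 3.24, above all 6 arrays compared here. The macrophage list as a whole held 0 called genes of 19 between infused KO and untreated WT, with 1 at an unadjusted p under 0.05 and a median log2 difference of 0.179, against 13 higher genes and a median of 1.006 in untreated KO, where 4.52% of all genes were called higher. In a bulk kidney, fewer cells of a type and less RNA of that type in each cell cannot be told apart. Cd44, an adhesion receptor, read 1.333, 1.047 and 1.025 in infused KO against 0.659, 0.748 and 0.547 in untreated WT, which do not overlap, but the difference of 0.80 missed the threshold (adjusted p = 0.0548). Cd44 was called in 8 alternatives, among them the fit to these groups alone (adjusted p = 0.0262), the replicate block (0.0295) and quantile normalization (0.00228). Its 4 probe sets differed by 0.02 to 0.80, none called. Clec2h, a C-type lectin, read 0.681, 0.821 and 0.776 in infused KO and 1.868, 1.179 and 1.646 in untreated WT, which do not overlap, and was not called at -1.02 (adjusted p = 0.07). It was called in 7 alternatives, among them the fit to these groups alone (adjusted p = 0.0181) and quantile normalization (0.00898). The choice used the same untreated WT arrays as this comparison. An extreme value there favours both the choice and a call, so the count below describes and does not test. Of these 12 genes, 6 were called between infused KO and untreated WT, where 1.48% of all genes were called. They were Sugct, Gpx6, Jchain, Igha, Igkv8-30 and D17H6S56E-5. The last, at 0.75 (adjusted p = 0.0317), lost its call without infused KO replicates 1 (0.12), 2 (0.0785) or 3 (0.0623) or untreated WT replicates 2 (0.122) or 3 (0.109).

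Sugct and Gpx6 showed the deepest falls of any named gene. Sugct, which encodes a mitochondrial CoA-transferase that acts on glutarate, read 2.59, 2.04 and 2.62 in untreated WT and 0.155, 0.187 and 0.188 in infused KO. The difference was -3.77 ± 0.14 (adjusted p = 1.08e-08). Untreated KO read 0.179, 0.157 and 0.136 and infused WT 2.46, 1.81 and 2.01, so the arrays divided by genotype and not by infusion. The other probe set of Sugct did not follow, with a difference of 0.07 (adjusted p = 0.772). Gpx6, a glutathione peroxidase, read 1.92, 1.79 and 1.60 in untreated WT and 0.247, 0.402 and 0.208 in infused KO, a difference of -2.68 ± 0.18 (adjusted p = 5.5e-06). It was equally low in untreated KO, at 0.208, 0.219 and 0.196, and high in infused WT, at 2.41, 2.13 and 2.26. Both calls ended in 1 of 22 alternatives, in which the variances were moderated with a trend on the mean value, with adjusted p = 0.923 for Sugct and 0.399 for Gpx6. The values are ratios, so that mean is not an expression level. Both genes kept the call in every other alternative.

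Both genes lie on chromosome 13, where Agtr1a is found. By order along the chromosome in the RefSeq table of assembly GRCm38.p6, 90 measured genes stand between Sugct and Agtr1a and 72 between Gpx6 and Agtr1a, on the same side. Among the 25 measured genes on either side of Agtr1a, 50 in all, limma called 0 and gave 4 at an unadjusted p under 0.05, and 48 of the 50 had an interval inside 1.5-fold. Many of the 50 belong to the prolactin and serpin families. Ratios cannot show which of their probe sets are dim, so 0 calls say little about the locus. On chromosome 13 as a whole 22 of 702 genes were called, 3.13%, and the shares on the other autosomes and the X chromosome ran from 0.985% to 2.25%. Those called genes included Akr1c18, Nfil3, Sfxn1 and Ccl28, described below, with 136, 143, 150 and 545 measured genes between them and Agtr1a.

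**Figure D3:**
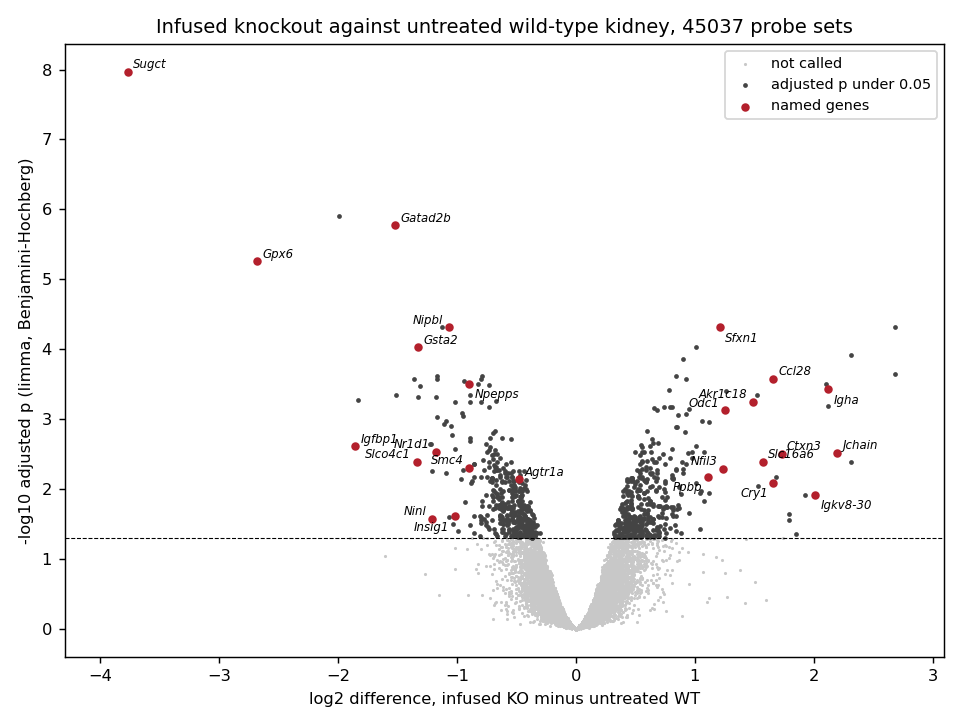
Log2 difference, infused KO minus untreated WT, on the horizontal axis against -log10 of the adjusted p from limma for 45037 probe sets; dark points are called, red points are the named genes, and the dashed line is adjusted p = 0.05. Sugct at -3.77 and Gpx6 at -2.68 stand apart on the left, and Jchain at 2.20 and Igha at 2.12 lie farthest to the right among the red points.

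By representative probe set, the largest rises among named genes were those of 3 genes of antibody components. Jchain, the joining chain that links IgA and IgM subunits, read 2.68, 1.38 and 2.13 in infused KO and 0.481, 0.481 and 0.354 in untreated WT. The groups were well apart, and the difference was 2.20 ± 0.31, a 4.58-fold rise (adjusted p = 0.003). Igha, the IgA heavy chain, read 2.52, 1.48 and 2.01 in infused KO against 0.486, 0.516 and 0.367, a rise of 2.12 ± 0.23 (adjusted p = 0.000376), and all 3 of its probe sets were called, with 2.10 to 2.12. Igkv8-30, a kappa light chain variable segment, was higher by 2.01 ± 0.36 (adjusted p = 0.0121). This call did not hold without infused KO replicate 1 (adjusted p = 0.0559) or without untreated WT replicate 2 (0.0628). Immunoglobulin segments resemble one another, so a probe set named for 1 of them may also read others.

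These genes were higher still in untreated KO, where Jchain read 6.69, 3.72 and 5.09 and Igha 5.545, 3.214 and 4.643, and they stayed low in infused WT, with Jchain at 0.24, 0.622 and 0.334. All 6 KO arrays therefore lay above all 6 WT arrays for both genes. Of the 8 measured genes of the B and plasma cell list, Jchain was the 1 called between infused KO and untreated WT, 2 had an unadjusted p under 0.05, and 7 had a positive difference. In untreated KO, where 4.52% of all genes were called higher, 3 were, namely Jchain, Mzb1 and Pou2af1. Mzb1, a plasma cell chaperone, differed by 0.35 (adjusted p = 0.267), and Ighm, the IgM heavy chain, by 0.09 (0.777). Ccl28, a chemokine known to attract IgA-secreting cells to mucosal surfaces, also rose and was highest in infused KO. Its representative probe set read 2.59, 2.70 and 3.30 in infused KO, 0.768, 0.93 and 1.02 in untreated WT, 1.175, 0.983 and 1.707 in untreated KO and 0.926, 0.951 and 0.929 in infused WT. Infused KO exceeded all 9 other arrays, the difference from untreated WT was 1.66 ± 0.17 (adjusted p = 0.000265), and the other probe sets of Ccl28 gave 2.31 and 2.68. For those probe sets untreated KO, at 1.037 to 2.012 and 1.108 to 2.297, also lay above every WT array. The highest WT values were 0.963 and 0.892.

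Most called probe sets followed at least 1 of 4 layouts of the 12 arrays, which can overlap, and 40 of the 833, 4.8%, followed none. Of all 45037 probe sets, 39742, 88.2%, followed none. Every layout needs infused KO and untreated WT to lie apart, which a call favours as well. Infused KO lay beyond all 9 other arrays for 162 of the 404 higher and 116 of the 429 lower probe sets, where 2.24% and 1.13% of all probe sets did so. All 6 KO arrays lay beyond all 6 WT arrays for 94 higher and 18 lower ones, against 0.981% and 0.897% of all probe sets. Untreated WT stood alone, with the 9 other arrays beyond it, for 120 higher and 94 lower ones, against 1.39% and 1.37%. The 6 infused arrays lay beyond the 6 untreated arrays for 99 higher and 267 lower ones, against 1.56% and 2.90%. The calls used the same arrays, so these counts describe and do not test.

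Infused KO lay beyond the 9 other arrays for several named genes. Akr1c18, an aldo-keto reductase that inactivates progesterone, read 3.159, 2.345 and 1.99 in infused KO and 0.98, 1.02 and 0.66 in untreated WT. The rise was 1.49 ± 0.17 (adjusted p = 0.00056), with untreated KO at 0.77 to 0.896 and infused WT at 0.946 to 1.05. Odc1, ornithine decarboxylase, which makes putrescine, read 2.698, 2.354 and 2.522 in infused KO and 1.049, 0.951 and 1.198 in untreated WT. It rose by 1.25 ± 0.15 (adjusted p = 0.000747), whereas infused WT lay below untreated WT, at 0.416, 0.403 and 0.369. A second of its 3 probe sets was also called, at 0.79 (adjusted p = 0.00363), and the remaining one was not, at 0.27 (0.302).

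Gsta2, a glutathione S-transferase, fell in infused KO alone. It read 0.38, 0.396 and 0.514 there and 0.993, 1.01 and 1.22 in untreated WT, a difference of -1.33 ± 0.12 (adjusted p = 9.34e-05). Untreated KO read 0.931 to 1.03 and infused WT 1.351 to 1.485, so every other array was above infused KO. Nqo1, a quinone reductase and a standard target of the transcription factor NRF2, read 0.711, 0.718 and 0.785 in infused KO against 1.282, 1.116 and 1.484 in untreated WT, a log2 difference of -0.80 ± 0.13 (adjusted p = 0.00661). Infused WT lay just above, at 0.801 to 0.884, and was also called lower than untreated WT, at -0.63 (adjusted p = 0.00435). In the list of NRF2 and oxidative stress genes 3 of 22 were lower, beside 0.643% of all genes, and none higher. An unadjusted p under 0.05 was found for 6, all lower, beside 12.3% of all genes. The third called gene was Gstm1, at -0.39 (adjusted p = 0.0374), for which 3 of 4 probe sets were called. The call of its representative probe set ended in 9 alternatives, among them without infused KO replicates 1, 2 or 3 (0.0836, 0.0901 and 0.127), untreated WT replicates 2 or 3 (0.145 and 0.125) or untreated KO replicate 2 (0.0525). The list's median difference was -0.069, its mean log2 ratio was -0.175 to -0.124 in infused KO and -0.046 to 0.09 in untreated WT, and Hmox1 and the glutamate-cysteine ligase genes Gclc, at 0.12, and Gclm, at -0.08, were not called.

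Igfbp1, an insulin-like growth factor binding protein, read 0.437, 0.265 and 0.365 in infused KO and 1.315, 1.304 and 1.182 in untreated WT. The difference was -1.86 ± 0.26 (adjusted p = 0.00246). Infused WT moved the other way, to 6.07, 5.01 and 2.55, and untreated KO lay between, at 0.818, 0.581 and 0.71. Ctxn3, a small membrane protein of the cortexin family, read 2.34, 1.54 and 1.89 in infused KO and 0.579, 0.439 and 0.732 in untreated WT, a rise of 1.73 ± 0.25 (adjusted p = 0.00313). Untreated KO was also high, at 1.18 to 1.61, while infused WT was not, at 0.384 to 0.821. Slc16a6, a monocarboxylate transporter, read 2.19, 1.06 and 2.09 in infused KO against 0.526, 0.563 and 0.626 in untreated WT, a rise of 1.57 ± 0.23 (adjusted p = 0.00405). Infused WT, at 0.938 to 1.196, and untreated KO, at 0.75 to 1.199, both overlapped infused KO, and infused WT was also called higher than untreated WT, by 0.95 (adjusted p = 0.0116). Ppbp, a platelet chemokine, rose by 1.11 ± 0.18 (adjusted p = 0.00661), from 0.588 to 0.853 in untreated WT to 1.39 to 1.85 in infused KO, and was the 1 called gene of 7 in the erythroid and blood list. Untreated KO reached 1.411 for Ppbp and overlapped infused KO.

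**Figure D4:**
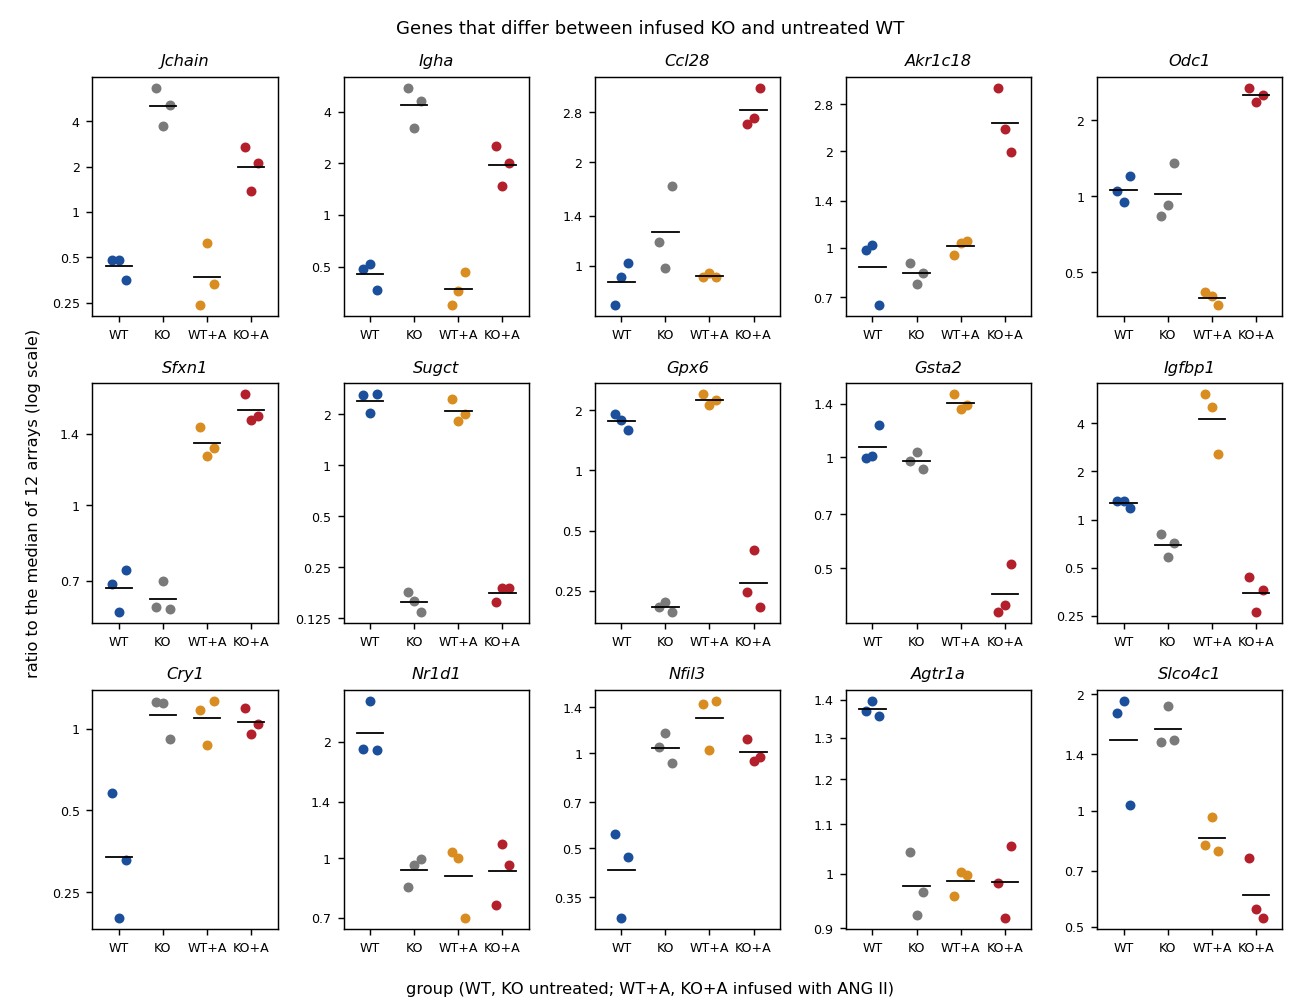
Ratios to the 12-array median on log axes for 15 genes called between infused KO and untreated WT; points are single arrays, lines are group means of log2 ratios, and WT+A and KO+A are the infused groups. Jchain, Igha, Sugct and Gpx6 divide by genotype, and Ccl28, Akr1c18, Odc1 and Gsta2 set infused KO apart from the 9 other arrays; Sfxn1 and Slco4c1 divide by infusion, and Cry1, Nr1d1, Nfil3 and Agtr1a set untreated WT apart.

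Untreated WT stood alone for 3 clock genes, Cry1, Nfil3 and Nr1d1. The circadian clock runs on loops in which CLOCK and BMAL1 switch on their own repressors through E-boxes, short DNA elements in promoters, and it drives a large share of kidney transcription over the day. Cry1, a repressor of that loop, read 0.582, 0.20 and 0.328 in untreated WT and 1.196, 0.958 and 1.042 in infused KO, a rise of 1.66 ± 0.28 (adjusted p = 0.00806). Untreated KO, at 0.916 to 1.255, and infused WT, at 0.873 to 1.27, were as high as infused KO. Nfil3, a repressor of D-box genes, read 0.554, 0.30 and 0.469 in untreated WT and 1.11, 0.944 and 0.977 in infused KO, a rise of 1.24 ± 0.19 (adjusted p = 0.00514). Nr1d1, which encodes the nuclear receptor REV-ERB alpha and represses Bmal1, moved the other way. It read 1.91, 2.55 and 1.90 in untreated WT and 0.758, 1.09 and 0.958 in infused KO, a difference of -1.18 ± 0.17 (adjusted p = 0.00294), with the other groups at 0.698 to 1.035.

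The promoters of Cry1, which was higher, and Nr1d1, which was lower, are shown as 2 of the 4 called clock genes. Each runs from 250 bases before to 50 after the RefSeq gene start in GRCm38.p6, 5′ to 3′ on the gene's strand, with an E-box of the letters CACGTG in capitals. The element reads the same on both strands, and 7.15% of 32851 promoters of this length hold it. The window of Cry1 is chr10:85185005-85185304 on the minus strand and holds 1 match, which starts at -60 from the gene start. That of Nr1d1 is chr11:98775328-98775627 on the minus strand and holds 0. The windows of Nfil3 and Rora, which were higher like Cry1, also hold 0. A match is a run of letters and not a measured binding site, and the absence of one says nothing of sites outside the window.
Cry1: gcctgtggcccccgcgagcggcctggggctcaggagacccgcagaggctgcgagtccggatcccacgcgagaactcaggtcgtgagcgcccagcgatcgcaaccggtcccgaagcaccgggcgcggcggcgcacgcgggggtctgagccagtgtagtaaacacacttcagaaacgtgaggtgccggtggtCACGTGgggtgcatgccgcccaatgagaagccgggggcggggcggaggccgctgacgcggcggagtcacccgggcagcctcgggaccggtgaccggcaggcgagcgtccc
Nr1d1: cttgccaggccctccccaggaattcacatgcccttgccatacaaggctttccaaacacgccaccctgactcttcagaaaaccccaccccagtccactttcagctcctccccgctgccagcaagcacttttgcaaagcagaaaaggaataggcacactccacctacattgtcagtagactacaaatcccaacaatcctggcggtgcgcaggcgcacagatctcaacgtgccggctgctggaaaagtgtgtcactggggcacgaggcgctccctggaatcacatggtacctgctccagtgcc

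Of the 20 clock genes measured, 3 were higher, 1 was lower and 16 were not called, with a median difference of 0.048. Rora, an activator of Bmal1, was the third higher gene, at 0.55 ± 0.09 (adjusted p = 0.00702), and just 2 of its 9 probe sets were called, so the call ended for the mean of its probe sets (0.602). Dbp, a D-box activator with a steep daily rhythm, read 1.763 to 4.201 in untreated WT and 0.433 to 2.28 in infused KO, and its difference of -1.61 was not called (adjusted p = 0.0911). Per1, Per2 and Arntl, the last of which encodes BMAL1, differed by -0.08, 0.41 and 0.16, none called. The time of day at which kidneys were taken is not given in the labels, so no value of it can be set beside these differences.

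Probe sets in which both infused groups lay beyond both untreated groups were mostly lower ones, and few genes showed the change across their probe sets. Gatad2b, a subunit of the NuRD chromatin complex, read 0.503, 0.586 and 0.53 in infused KO and 1.414, 1.605 and 1.627 in untreated WT for its representative probe set, a difference of -1.52 ± 0.09 (adjusted p = 1.68e-06). Infused WT read 0.496 to 0.534 and untreated KO 1.56 to 1.76. The 4 other probe sets of Gatad2b differed by -0.18 to 0.01 and were not called. Nipbl, the cohesin loader, at -1.07, had 1 of 5 probe sets called, and Npepps, an aminopeptidase, and Smc4, a condensin subunit, both at -0.90, had 1 of 3 each. Those calls ended for the mean of the gene's probe sets, with adjusted p = 0.0909 for Nipbl, 0.119 for Npepps and 0.464 for Smc4.

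Malat1, a long nuclear RNA, and Akap9, a scaffold of the Golgi and centrosome, were added to the named genes once their values had been seen. For Malat1 3 of 7 probe sets were lower, by 1.33 to 1.83 in size, and the other 4 differed by -0.25 to 0.21. For Akap9 the lowest probe set read 0.397 to 0.436 in infused KO and 1.56 to 1.71 in untreated WT, a difference of -1.99 ± 0.11 (adjusted p = 1.26e-06), and a second was called at -1.17. Over all genes with several probe sets, 289 had a lower call and no higher one, and in 252 of these just 1 probe set was called, while 7 had all of theirs called. Of the 190 with a higher call and no lower one, 154 had 1 and 15 had all. A further 9 genes had probe sets called in both directions. In genes with several probe sets, most lower and most higher calls are therefore stated for a probe set and not for its gene.

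Control probe sets compare RNA quality between arrays only, since each ratio is taken to its own probe set's median over the series. The differences show how an array departs from the series and not whether its RNA was intact. The log2 difference between the 3' and the 5' ratios of the Actb control was 0.002 to 0.034 in infused KO, -0.025 to 0.007 in untreated WT, -0.052 to -0.027 in untreated KO and 0.075 to 0.15 in infused WT. For Gapdh it was -0.026 to 0.02 in infused KO, -0.025 to 0.001 in untreated WT, -0.053 to 0.032 in untreated KO and -0.06 to 0.058 in infused WT. Infused KO and untreated WT overlapped for each control, but their ranges for the mean of both controls did not, at 0.0 to 0.011 in infused KO and -0.018 to -0.007 in untreated WT. The part of these measures in the calls was not tested.

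Sfxn1, a mitochondrial serine transporter, was a rise with the same layout. It read 1.69, 1.49 and 1.52 in infused KO, 0.691, 0.605 and 0.738 in untreated WT, 1.26 to 1.44 in infused WT and 0.613 to 0.70 in untreated KO. The difference from untreated WT was 1.21 ± 0.10 (adjusted p = 4.87e-05). The other of its 2 probe sets went the other way, at -0.2, and was not called. Slco4c1, an organic anion transporter of the proximal tubule, fell in both infused groups, reading 0.754, 0.558 and 0.526 in infused KO and 1.785, 1.926 and 1.037 in untreated WT. Its difference was -1.34 ± 0.20 (adjusted p = 0.00411), with infused WT at 0.785 to 0.963. The other of its 2 probe sets differed by -0.44 and was not called. Slco4c1 was 1 of 2 lower genes of 24 in the list of amino acid and organic ion transport. The second, Abcc4, an efflux pump, differed by -0.57 (adjusted p = 0.0314), and its call ended without infused KO replicate 2 (0.113) or 3 (0.0907) or untreated WT replicate 1 (0.133) or 3 (0.0869). The list's median difference was 0.008, against -0.389 and 14 lower genes in infused WT, where 14.5% of all genes were called lower.

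Lists of kidney functions and cell types showed small median shifts. The 32 lists held 537 measured genes, of which 25 were called, 4.66%, beside 1.48% of all genes. The lists were written with earlier results of these data known, so the higher share is not evidence about them. Limma called no member in 16 lists. Among these, fatty acid oxidation and PPAR alpha targets had 0 of 25 called and 2 at an unadjusted p under 0.05, with a median of 0.105, interferon-stimulated genes 0 of 23 and 5 with 0.118, tubular injury and repair 0 of 22 and 5 with 0.136, and cell cycle 0 of 21 and 4 with 0.11. Proximal tubule markers had 0 of 19 called and 3 unadjusted, with a median of -0.011, and 18 of the 19 had an interval inside 1.5-fold. The corresponding counts were 0 of 10 and 1 for the thick ascending limb, the distal convoluted tubule and the podocyte, 0 of 14 and 0 for smooth muscle, mesangium and juxtaglomerular cells, and 0 of 11 and 3 for neutrophils. Quantile normalization raised the called members of all lists from 25 to 61, among them 2 higher genes of tubular injury and 3 of cell cycle.

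**Figure D5:**
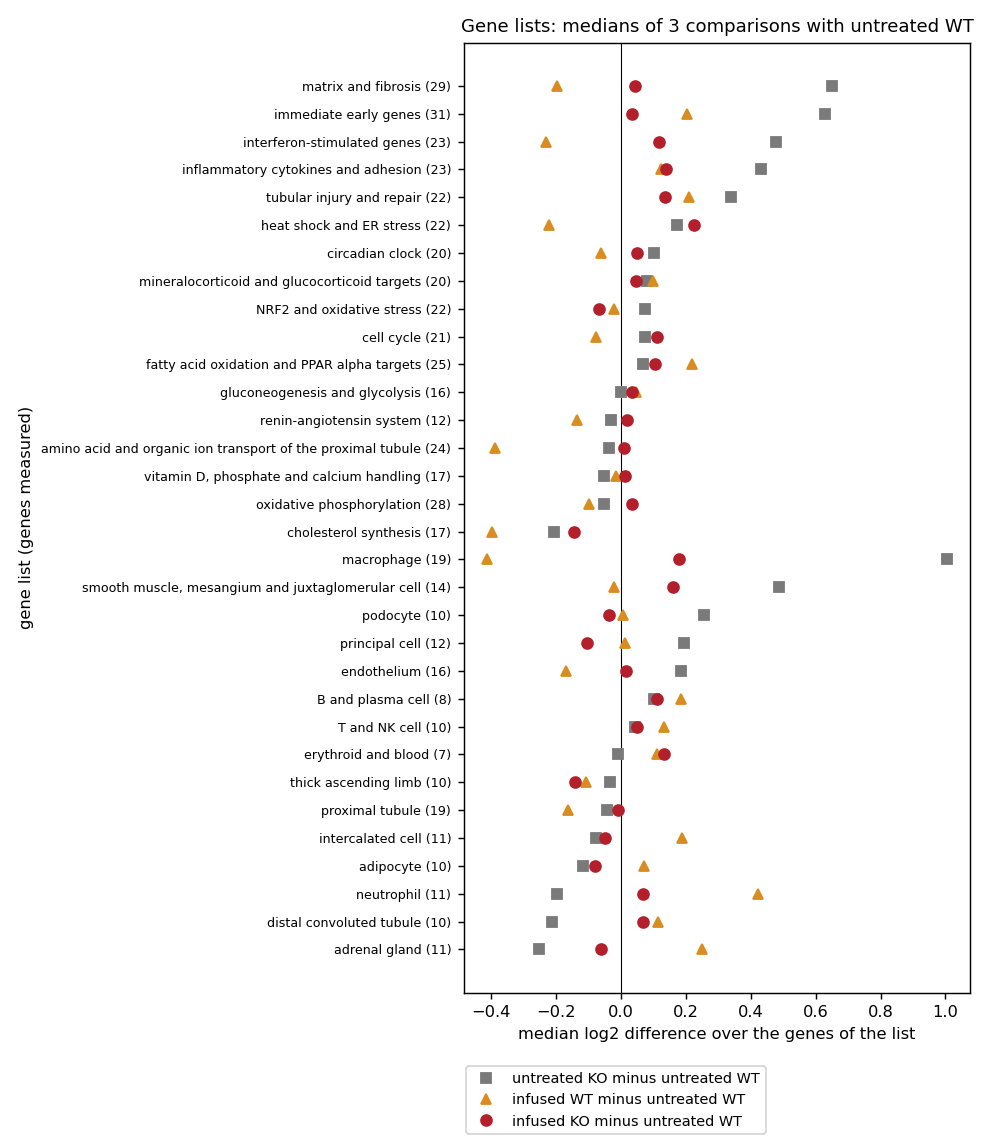
Median log2 difference over the measured genes of each of 32 lists, with cell types in the lower and pathways in the upper block and the number of genes in brackets; squares are untreated KO, triangles infused WT and circles infused KO, each minus the same 3 untreated WT arrays. Circles for infused KO lie between -0.146 for cholesterol synthesis and 0.224 for heat shock and ER stress, while macrophage genes reach 1.006 in untreated KO.

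Immediate early genes, which switch on within minutes of a stimulus, were close to untreated WT, with 1 lower of 31 and a median of 0.035. In untreated KO 18 were higher, with a median of 0.63. Of all genes, 0.643% were called lower in infused KO and 4.52% higher in untreated KO. The called member, Zfp36, at -0.50 (adjusted p = 0.0453), lost its call in 15 alternatives, including without infused KO replicates 2 (0.152) or 3 (0.119) and without any one untreated WT array (0.105, 0.0822 and 0.148). Matrix and fibrosis genes had 14 higher and a median of 0.651 in untreated KO. Between infused KO and untreated WT 2 of 29 were higher, beside 0.835% of all genes, with a median of 0.042. Those members were Mgp, a calcification inhibitor, which read 1.45, 1.11 and 1.18 in infused KO and 0.647, 0.69 and 0.496 in untreated WT, at 1.04 (adjusted p = 0.0372), and Tgfbi, a secreted matrix protein, at 0.76 (0.0418). Without any one of the 6 arrays compared the call of Mgp ended, with adjusted p = 0.137, 0.0683 and 0.0856 for the infused KO replicates in order and 0.0938, 0.0839 and 0.127 for the untreated WT replicates. Tgfbi lost its call likewise, except without infused KO replicate 2, with adjusted p of 0.10 to 0.15 for the other 5 arrays.

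A few further list members were called. Hsph1, a co-chaperone of HSP70, read 1.41, 1.05 and 1.49 in infused KO and 0.947, 0.669 and 0.749 in untreated WT, at 0.74 (adjusted p = 0.037). Its call ended without infused KO replicates 1 (0.13) or 3 (0.129), untreated WT replicates 2 (0.163) or 3 (0.107) or untreated KO replicate 2 (0.0525). Hsph1 was the 1 called of 22 heat shock and ER stress genes, of which 19 had a positive difference. An unadjusted p under 0.05 was found for 8 of the 22, all higher, beside 12.3% of all genes. Quantile normalization called 4 of them higher. Uqcrc2, a core subunit of respiratory complex III, read 1.28, 1.21 and 1.25 in infused KO and 0.884, 0.88 and 0.886 in untreated WT. Its difference of 0.50 ± 0.07 was called (adjusted p = 0.00291) and was not for the mean of its probe sets (0.228), and the 27 other oxidative phosphorylation genes were not called, with a list median of 0.032. Insig1, which retains the cholesterol sensor in the endoplasmic reticulum, read 0.972, 0.609 and 0.857 in infused KO and 1.63, 1.83 and 1.42 in untreated WT, at -1.02 (adjusted p = 0.0245), and was the 1 lower gene of 17 in cholesterol synthesis, whose median was -0.146. That call ended without infused KO replicates 2 (0.0885) or 3 (0.0569) or untreated WT replicates 1 (0.0828) or 2 (0.116).

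Aqp3, a water channel of the collecting duct's principal cells, read 0.762, 0.982 and 0.926 in infused KO and 1.37, 1.31 and 1.45 in untreated WT. The difference was -0.64 ± 0.13 (adjusted p = 0.0269), and infused WT was as low, at 0.796 to 0.947. A total of 3 of its 4 probe sets were called, at -0.93 to -0.52, although the call of the representative one ended without infused KO replicates 1 (0.11) or 3 (0.0641) or without untreated WT replicates 1 (0.0856), 2 (0.0769) or 3 (0.09). Aqp3 was the 1 called gene of 12 in the principal cell list, where Aqp2, the vasopressin-regulated channel, differed by -0.39 (adjusted p = 0.459). Kdr, the VEGF receptor 2 of endothelium, read 1.28, 1.25 and 1.35 in infused KO and 0.973, 1.00 and 0.948 in untreated WT, above them in every array, at 0.41 ± 0.08 (adjusted p = 0.0159). Its call ended without any of those arrays other than infused KO replicate 2 (adjusted p of 0.0519 to 0.0714), and it was the 1 called gene of 16 in the endothelial list, whose median was 0.014.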

How the data were processed

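RNA of snap-frozen kidneys was hybridised to Affymetrix Mouse Genome 430 2.0 arrays. RMA is named in the submitters' processing notes. The deposited values were a linear ratio of each array to its probe set's median over 12 arrays. The authors state no such division, which was read from the values: the median was within 0.002 of 1 for 45099 of 45101 probe sets. Log2 of the deposited ratios was taken and 64 controls were dropped, and 0 columns were left unused. Of 45037 probe sets, 34945 had 1 symbol, 932 several and 9160 none, by the platform annotation, and 34741 gene IDs were found in RefSeq GRCm38.p6. A gene was represented by 1 probe set, plain _at ones first, then _a_at, then _s_at, then _x_at, and the lowest number among equals.

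limma 3.58.1 (R 4.3.3) fitted 4 group means to 12 arrays (8 residual and 5.83 prior degrees of freedom), and p-values were Benjamini-Hochberg adjusted over all probe sets, two-sided. The procedure was tested on simulated data. Named genes were renin-angiotensin genes, the 12 largest called differences each way without overlap, up to 4 called members of a list (2 where none was called), the 6 largest rises and falls of 2 other comparisons, and called neighbours of Agtr1a. A few list members were named after their values were seen. The members and lists were chosen with earlier results of these data known. Alternatives were a variance trend, a fit to 2 groups, quantile normalization, centred arrays, 1 or mean probe set per gene, the replicate block, array weights, a filter on spread and each array left out. Deviations from the group mean correlated at 0.217, 0.016 and 0.219 for arrays of the same replicate number in the 2 groups. For different numbers the correlations were -0.294 to 0.1, so a shared effect of the number is not excluded. The labels do not say that a number marks a shared litter, day or batch. For that reason the numbers were not taken as pairs, and the replicate block was run as an alternative.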

Additional observations from a re-analysis of the deposited data

How the results depend on the processing

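The counts of called, higher, lower and at least 1.5-fold probe sets were 833, 404, 429 and 355, with 41454 intervals inside 1.5-fold. They were 2742, 1166, 1576 and 937 under quantile normalization, with 61 list members called in place of 25. With 1 probe set per gene they were 239, 138, 101 and 114, with 16924 intervals inside, and for mean values over the probe sets of each gene 203, 108, 95 and 68, with 17358 inside; both test 18193 features. Array weights gave 1374 called, 647 higher and 727 lower. The filter on spread tested 22518 probe sets and left 18654 intervals inside. Leaving out 1 array gave 300 to 1097 called, 155 to 493 higher, 145 to 604 lower, 211 to 392 at least 1.5-fold, 39768 to 41699 intervals inside and 13 to 29 list members. The median array distance of 0.1422 became 0.1835 under quantile normalization and 0.1796 with the filter. The causes were not tested, apart from fewer features or arrays. The genes next to Agtr1a had 0 calls in all alternatives.

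With the replicate number as a block 762 probe sets were called, and 645 with the block in the 2 groups alone, an alternative chosen after seeing the data; the samples share only a number. Of 43 named genes called, 20 kept the call in every alternative run, and none of the 92 named genes turned sign where a call was involved. Leaving out 1 array ended 0 to 15 of these calls. Ratios hold no signal over background, so dim probe sets could not be told from bright ones.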

Other observations

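A pair of neutrophil genes, S100a8 and S100a9, was spread widely within the infused KO group, while 9 of the 11 neutrophil genes measured had an interval inside 1.5-fold. S100a8, a calcium-binding protein of neutrophils, read 4.69, 1.06 and 2.20 in infused KO and 0.957, 0.914 and 0.716 in untreated WT, and S100a9, its partner, read 4.60, 1.11 and 1.42 against 0.73, 0.897 and 0.823. All infused KO values lay above untreated WT for both genes, the same kidney, replicate 1, was highest for both, and neither difference was called (1.38, adjusted p = 0.146, and 1.25, adjusted p = 0.157). Without infused KO replicate 2 the difference of S100a8 was called (1.91, adjusted p = 0.0347).

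Pvalb, a calcium buffer of the distal convoluted tubule, read 1.35, 1.35 and 1.79 in infused KO, above the 1.062, 1.105 and 1.205 of untreated WT in every array, and missed the threshold at 0.40 (adjusted p = 0.14). It was called under quantile normalization (adjusted p = 0.0431) and with the replicate block (0.0445). Il34, a ligand of the CSF1 receptor, read 1.56, 1.22 and 1.25 against 0.979, 0.883 and 0.867, at 0.55 ± 0.11 (adjusted p = 0.0161). That call ended without infused KO replicate 1 (0.0604) or untreated WT replicates 2 (0.0771) or 3 (0.0622).

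Vitamin D, phosphate and calcium genes held 1 higher and 1 lower gene of 17, with a median of 0.013. Slc20a1, a phosphate transporter, differed by 0.65 (adjusted p = 0.0172), a call that ended without infused KO replicate 1 (0.0672) or untreated WT replicate 2 (0.0899) and for the mean of its probe sets (0.185). Atp2b1, a plasma membrane calcium pump, differed by -0.42 (adjusted p = 0.027). Its call ended without infused KO replicates 1 (0.104) or 3 (0.0941) or untreated WT replicates 1 (0.103) or 2 (0.116), and for the mean of its probe sets (0.432). Cyp27b1, the enzyme that makes active vitamin D, read 1.12, 0.84 and 1.69 in infused KO and 1.45, 1.75 and 2.53 in untreated WT, ranges that overlap, and was not called (-0.67, adjusted p = 0.413). Hsd11b1, which regenerates active glucocorticoid, read 1.91, 1.70 and 1.16 against 0.903, 1.03 and 0.927, at 0.71 (adjusted p = 0.0341), and that call ended in 9 alternatives, including without any one untreated WT array (0.123, 0.0836 and 0.0975).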
